A study of Mus musculus with 2 samples.

Results

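The genes described here make up the mitochondrial protein import machinery and the mitochondrial chaperones, as far as the array names them. Members were the coding accessions, those starting with NM, whose gene name began with Timm or Tomm or was Hspd1, Hspe1, Hspa9, Lonp1, Clpp, Phb, Phb2, Pam16 or Grpel1. The rule found 30 accessions among 18743 coding accessions with a usable spot, read by 44 probes. The rule itself uses names and no measured value, although it was set with earlier results of these data known. The name Pam16 was not on the array, and its mRNA was present there under the older name Magmas.

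The cells were NIH3T3, an established mouse fibroblast line, grown in medium with 10% serum on 4 plates per preparation. One group was left untreated (control). The other received 10 µM thapsigargin for 3 h, which blocks the SERCA calcium pump, empties the calcium store of the endoplasmic reticulum (ER) and causes ER stress. Lysates of both groups were made with cycloheximide and run on a 10 to 40% sucrose gradient, which separates mRNAs by the number of ribosomes they carry. RNA of the polysomal fractions (P) was labelled with Cy3 and RNA of the free and monosomal fractions (FM) with Cy5, and both were hybridised together, with 1 array per condition made from a pool of 3 preparations. The study's methods state that P and FM RNA were labelled in the proportions recovered, with more P in control and more FM under stress. With 1 array per group there was no replicate spread and no test, so every difference below compares these arrays and has no replicate check.

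The measure of polysome loading was log2 P/FM, in which the polysomal signal of an mRNA is divided by its free plus monosomal signal. The mean of both log2 signals, called A, stood for the amount of the mRNA. mRNAs with A above 4.5 on both arrays were compared, 10033 in all and 28 of the 30 members. Probes of one mRNA differed by a median SD of 0.32 in the change of log2 P/FM over 3438 mRNAs with several probes, and repeated spots of one probe by 0.11 over 116 probes. This spread is technical, and in the absence of replicates it was the nearest measure of error.

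Proteins made in the cytosol enter mitochondria through the TOM complex of the outer membrane. Preproteins with a cleavable presequence pass on through the TIM23 channel of the inner membrane and are pulled into the matrix by an Hsp70 motor, whereas multispanning carriers are escorted by small TIM chaperones to the TIM22 complex. In the matrix the Hsp60 and Hsp10 chaperonin folds them, and the Lon and ClpP proteases remove damaged chains. A general block of translation initiation is a known early response to ER stress, acting through phosphorylation of eIF2α.

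The array read each mRNA through probes of 60 bases, and 7 of them are shown because the results turn on these genes. Coordinates are on mm9. The first pair belongs to small TIM chaperones, whose proteins carry cysteine pairs 3 residues apart, and capitals mark a stretch that reads as such a pair of cysteine codons in a frame without a stop.
Timm8b, chr9:50413114-50413173, plus strand: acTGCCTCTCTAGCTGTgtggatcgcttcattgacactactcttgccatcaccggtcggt
Timm9, chr12:72226471-72226530, minus strand: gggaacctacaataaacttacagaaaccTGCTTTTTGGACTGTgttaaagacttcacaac
Timm17a, chr1:137201020-137201079, minus strand: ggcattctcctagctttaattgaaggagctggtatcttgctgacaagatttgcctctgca
Timm17b, chrX:7480811-7483204, plus strand: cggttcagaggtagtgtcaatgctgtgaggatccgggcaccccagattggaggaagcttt
Tomm40, chr7:20299087-20299677, minus strand: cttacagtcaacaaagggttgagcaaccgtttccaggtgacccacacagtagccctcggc
Tomm20, chr8:129461068-129463816, minus strand: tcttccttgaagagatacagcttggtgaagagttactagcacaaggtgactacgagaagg
Hspd1, chr1:55135463-55135522, minus strand: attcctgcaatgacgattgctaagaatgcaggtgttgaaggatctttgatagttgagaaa
The Timm17b, Tomm40 and Tomm20 probes covered 2394, 591 and 2749 bases of the genome with 60 bases of sequence, so each crossed an exon junction. The others lay within 60 contiguous bases. The cysteine codon stretch occurred in 4 of the 44 member probes, those of Timm8b and Timm9 and both overlapping probes of Timm13, and in 2.83% of all 26746 coding probes. The match is a description of letters, and the files give no reading frame.

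On the control array the median loading of the import and chaperone mRNAs was close to that of all mRNAs when signal was not considered. Their median log2 P/FM was 0.48, against 0.34 over all coding mRNAs, and 20 of 28 lay at or above 0, against 63.5% of all coding mRNAs. At like signal, by the mean A of both arrays, the order varied. For the 7 members with a mean A from 7 to 9 the control median was 0.70, against 0.45 of all mRNAs there. It was 0.22 against 0.82 from 9 to 11 (9 members) and 0.80 against 1.07 from 11 to 13 (11 members). Above 13, Hspe1 had 0.14 against 0.32. On the thapsigargin array the median of the 28 members was −1.14 and 6 of 28 lay at or above 0, against a median of −0.29 and 37.4% of all. The control value ranged from −2.74 for Timm8a1 to 1.78 for Timm23, and the thapsigargin value from −2.85 for Timm8a1 to 0.47 for Timm10.

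Between the arrays, log2 P/FM was lower on the thapsigargin array for 27 of the 28 members as the study scaled the arrays, by a median of −1.31, whereas scaling to the spike-in probes placed all 28 above 0. The median change of all coding mRNAs was −0.71 and itself moved with the scaling, to −0.15 after loess, −0.12 after centring and 1.84 after spike-in scaling. With normexp background correction and without background subtraction, the filter on A removed no accession. The median over all 18743 was then 0.33 and −0.17. Changes are therefore also given relative to the median change of all coding mRNAs. The members' median change lay 0.60 below it (−0.60), a direction that turned to 0.10 above it with the signals as processed by the scanner software, 0.04 with the log ratio of that software and 0.01 after loess. Of the 28 members, 19 fell in the sensitive class of the study, which holds mRNAs with a change of −0.8 or lower, against 47.0% of all coding mRNAs. No member was in the resistant class, which asks for at least 0.8 on each array (3.00% of all), and no member in the inducible class, with a control value at or below 0 and a change of 1 or more (8.86% of all).

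**Figure D1:**
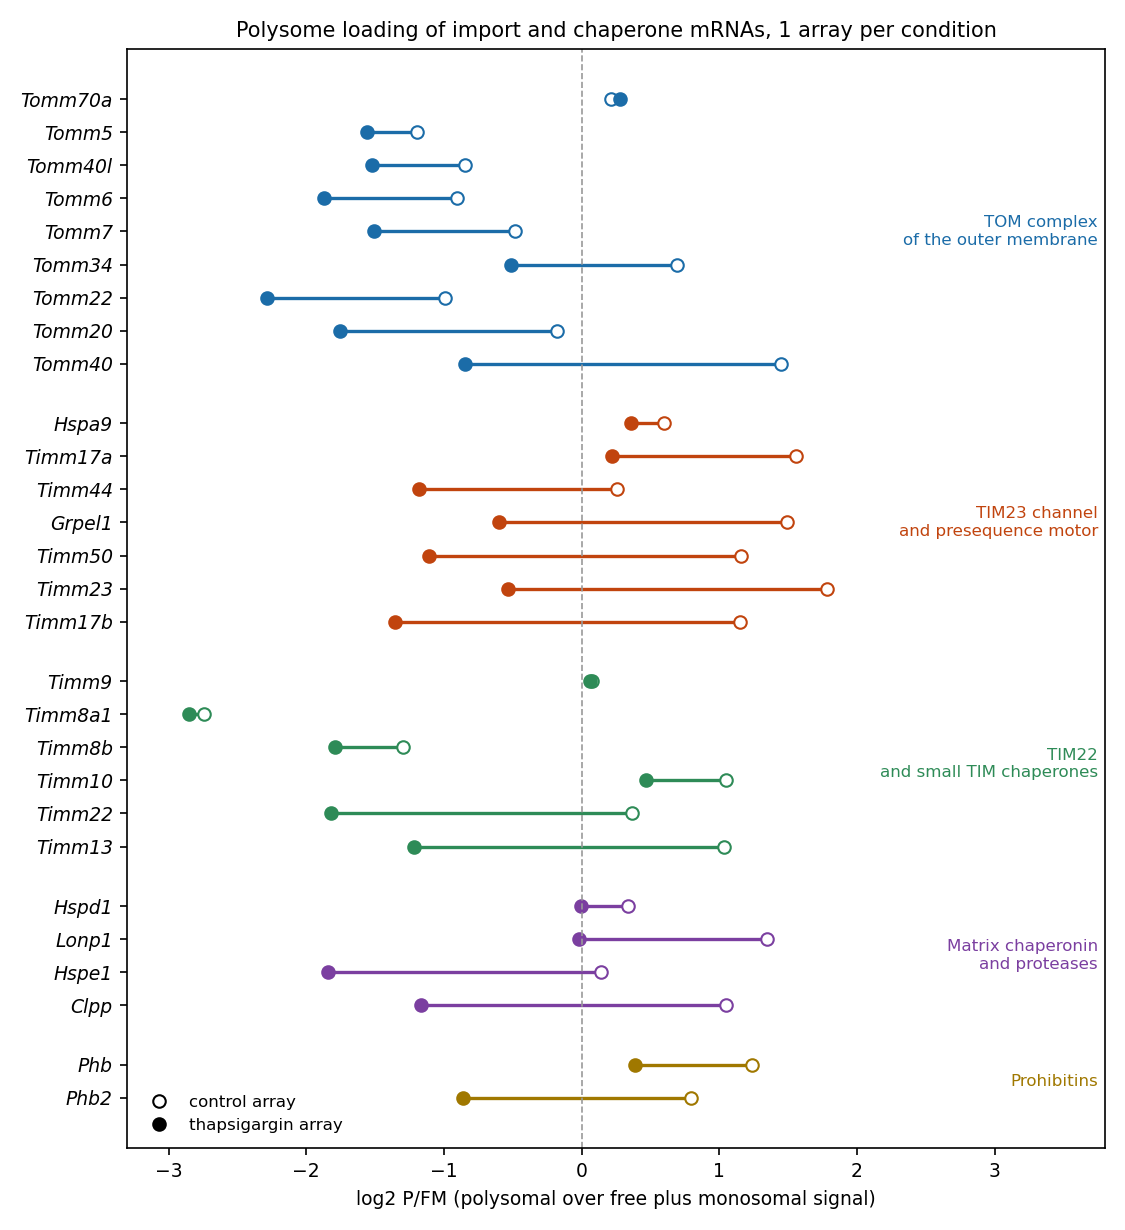
The log2 P/FM of each of the 28 mRNAs on the control array (open circles) and on the thapsigargin array (filled circles), by role, in order of change within a role and without array normalization. The thapsigargin value lies to the left of the control value for all but Tomm70a, with the longest lines for Timm17b, Timm23, Tomm40 and Timm50, and spike-in scaling turns the direction of all of these changes.

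The change depended on signal over all mRNAs, and the members were bright, with a median mean A of 10.78 against 7.65. In the range of mean A from 7 to 9, 6 of 7 members lay below the median of all mRNAs there, with medians of −2.09 against −0.67. From 9 to 11, 4 of 9 did (−0.97 against −1.26), and from 11 to 13, 3 of 11 did (−1.36 against −1.71). The single member above 13, Hspe1, was itself the median of its range at −1.99. The sensitive class held 5 of 7, 6 of 9, 7 of 11 and 1 of 1 members in these ranges, against 45.5%, 65.2%, 79.7% and 85.1% of all mRNAs, so the share of 47.0% over all mRNAs is not that of mRNAs of like signal. In all, 13 of 28 members lay below the median of mRNAs of like signal, and the part of signal in the members' lower overall median was not tested. Of the members from 7 to 9, Grpel1, Timm17b and Timm22 had a probe not well above background (dim) averaged in. The −2.09 was the value of Grpel1. Their bright probes had A above 9 on both arrays, except the Timm17b probe with a change of −2.47. Their place in that range thus rests on dim probes. Without these their changes were −3.20, −2.80 and −3.52, but the range medians were not recomputed. Relative values of genes and role groups below are against all mRNAs, not against mRNAs of like signal.

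**Figure D2:**
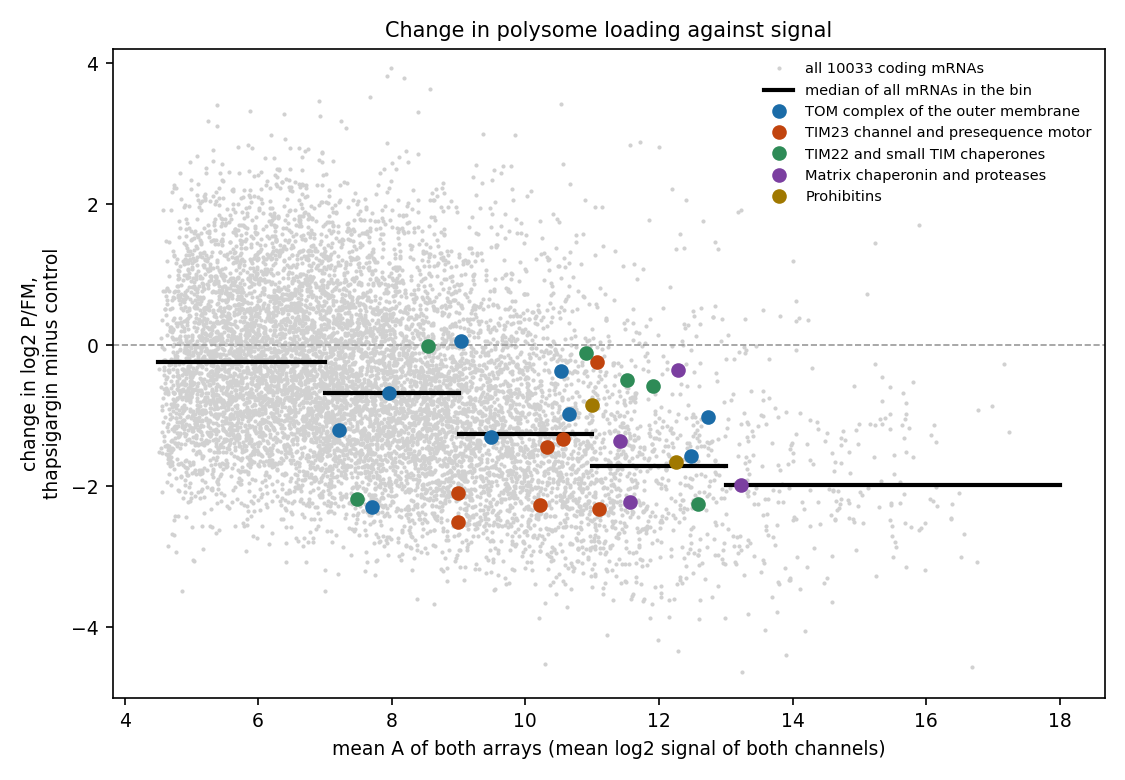
Change in log2 P/FM, thapsigargin minus control and without array normalization, against mean A of both arrays for all 10033 coding mRNAs (grey) and the 28 members coloured by role, with the median of all mRNAs in each range of mean A as black bars. The bars step down from −0.24 to −1.99 with rising signal, and the members scatter on both sides of them above a mean A of 9.

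The TOM complex is the entry gate of the outer membrane, with Tomm40 as the pore, Tomm20, Tomm22 and Tomm70a as receptors and Tomm5, Tomm6 and Tomm7 as small subunits. As a group its mRNAs had the lowest control median of the 5 role groups. The median log2 P/FM of the 9 TOM accessions was −0.48 in control and −1.52 under thapsigargin, with 3 of 9 at or above 0 in control. Their median change was −1.02, 0.31 below that of all mRNAs (−0.31 relative), and this order turned to 0.16 above after loess, 0.10 and 0.08 above with the software's signals and log ratio and 0.07 above with A over 7. The change was −0.8 or lower for 6 of the 9. The share was 47.0% of all mRNAs, and 45.5% to 79.7% in the ranges of mean A these 9 spanned.

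Tomm7, a small subunit, gave a P signal of 4662 and an FM signal of 6514 in control and of 5044 and 14320 under thapsigargin. Its log2 P/FM went from −0.48 to −1.51 with the FM signal 1.14 higher on the log2 scale and the P signal 0.11 higher. Tomm40 had the most negative change of the group. Its P signal was 370 in control and 144 under thapsigargin, and its FM signal 136 and 258, which moved log2 P/FM from 1.45 to −0.84, a change of −2.29. Tomm40 lay below the median of all mRNAs by 1.19 to 1.71 (−1.71 to −1.19) in the main and all alternative settings.

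Tomm20, a receptor for presequences, went from −0.18 to −1.75 in log2 P/FM, and Tomm22, the central receptor, from −0.99 to −2.28. Tomm22 stayed below the median of all mRNAs in all settings, by −1.59 to −0.10, whereas Tomm20 went above it with the software's signals and after loess. Tomm6 moved from −0.90 to −1.87. The low control values of Tomm5, Tomm6 and Tomm22 were below those of all but 7.32%, 11.6% and 10.2% of coding mRNAs.

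Tomm5, a small subunit, had P signals of 962 and 873 and FM signals of 2204 and 2571 in control and thapsigargin, and its log2 P/FM of −1.20 and −1.56 differed by −0.36. Tomm40l, a relative of Tomm40, had P signals of 213 and 129 and FM signals of 384 and 370, with log2 P/FM of −0.85 and −1.52. Both lay above the median change of all mRNAs, by 0.35 and 0.04. With normexp background correction both fell below it, at −0.39 and −0.50, as that median rose to 0.33 with no accession filtered out. Tomm34, a cytosolic cochaperone despite its name, went from 0.70 to −0.51.

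Tomm70a, the receptor for carriers, was the only member above the filter with a change above 0 without array normalization, at 0.06. Its P signal was 458 in control and 717 under thapsigargin and its FM signal 394 and 592. The mean covered probes that disagreed. The probe at chr16:57152888-57152947 gave −1.46, and the overlapping probes at chr16:57154227-57154286 and chr16:57154282-57154341, over 1 kb further along the gene, gave 0.82 and 0.83. All 3 were well above background in both channels of both arrays, so no single change can be given for this gene, and whether they read the same transcripts was not tested.

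**Figure D3:**
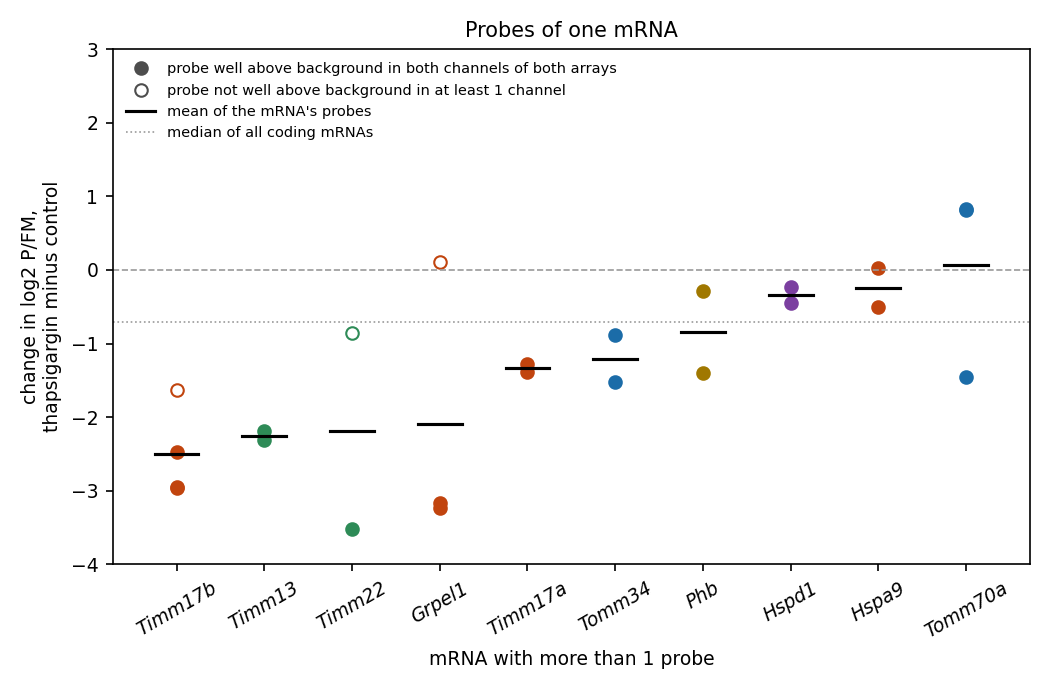
Change in log2 P/FM of each probe for the 10 members with more than 1 probe, coloured by role as in the other plots, without array normalization. Open circles are probes not well above background in at least 1 channel, and black bars are the means of an mRNA's probes. Probes of Timm17a, Timm13 and Hspd1 lie close together, whereas those of Tomm70a, Grpel1 and Hspa9 lie on both sides of 0.

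The TIM23 channel and its motor had the most negative median change of the 5 role groups as the study scaled the arrays. Timm23 and the Timm17 forms build the channel, Timm50 hands preproteins to it, Timm44 tethers the motor, Hspa9 is the mitochondrial Hsp70 and Grpel1 its nucleotide exchange factor. All 7 mRNAs were at or above 0 in control, with a median log2 P/FM of 1.16, and the median under thapsigargin was −0.60. The median change was −2.09, which was −1.38 relative to all mRNAs and lay between −2.07 and −0.61 relative to them over the main setting and 16 alternatives. The TIM23 group was not the lowest in 2 alternatives. Among accessions with every probe well above background it stood at −0.61 relative to all mRNAs, and the matrix group at −0.85. Without accessions whose probes disagreed it stood at −0.73, above the matrix group (−0.96) and the prohibitins (−0.94). The change was −0.8 or lower for 6 of the 7, Hspa9 being the exception. The share was 47.0% of all mRNAs, and 45.5% to 79.7% in the ranges of mean A these 7 spanned.

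Timm23 had P signals of 3754 in control and 2002 under thapsigargin and FM signals of 1090 and 2898. It held the highest control log2 P/FM of the members above the filter, 1.78, above 94.2% of coding mRNAs, and the thapsigargin value was −0.53. Timm50 went from 1.16 to −1.11 with P signals of 1664 and 867 and FM signals of 745 and 1870. In both genes the signal was lower in polysomes and higher in the free and monosomal fractions. Timm44 differed, since its P signal was nearly level at 1056 and 1124 and its FM signal was 881 and 2548, which gave 0.26 and −1.18.

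The Timm17 forms are alternative channel subunits encoded by different genes. Timm17a gave P signals of 2998 and 1402 and FM signals of 1019 and 1201, and its log2 P/FM went from 1.56 to 0.22. Timm17b gave P signals of 718 and 334 and FM signals of 324 and 853, and went from 1.15 to −1.36. The change was −1.33 for Timm17a, with probes 0.12 apart, and −2.50 for Timm17b, with probes 1.34 apart. Timm17a exceeded Timm17b in the change by 1.17, and by 0.64 to 1.64 over the settings. Shifts of a whole array and filters on accessions cannot move such a difference, here or in the pairs below. The smallest Timm17b change came from a dim probe at −1.63, and its bright probes gave −2.95, −2.97 and −2.47, all below the Timm17a probes at −1.27 and −1.39.

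Hspa9, which pulls preproteins into the matrix, had the most positive change of the group. Its P signal was 1639 in control and 3957 under thapsigargin and its FM signal 1081 and 3088, so both fractions were higher under thapsigargin and log2 P/FM moved from 0.60 to 0.36. Its probes gave changes of 0.02 and −0.51. Relatives in other compartments differed from it. Hspa5, the ER Hsp70, went from 1.06 to 2.43 with P signals of 5553 and 34645 and FM signals of 2655 and 6449. Hspa8, the cytosolic Hsp70, went from −0.41 to −1.99 with P signals of 7749 and 5770 and FM signals of 10269 and 22845. The change of Hspa9 exceeded that of Hspa8 by 1.34, with a range of 0.90 to 1.49 over the settings, and lay below that of Hspa5 (−1.60, with a range of −2.41 to −1.50).

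Grpel1 gave a mean log2 P/FM of 1.49 in control and −0.60 under thapsigargin, with mean P signals of 800 and 440 and mean FM signals of 284 and 668. A dim probe with signals of 14.5 to 22.4 was averaged in, with a change of 0.11. The bright probes gave −3.16 and −3.23, and without the dim probe the change was −3.20 in place of −2.09.

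**Figure D4:**
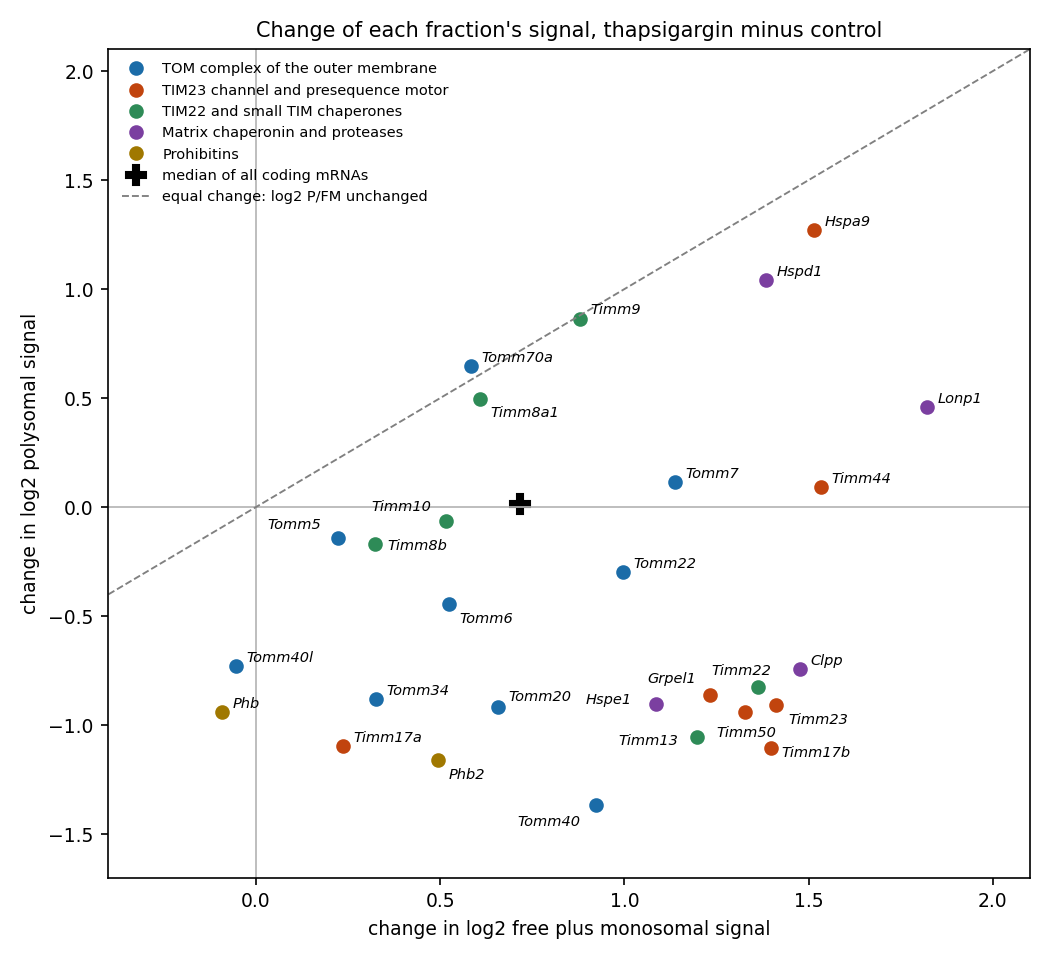
Change of the log2 polysomal signal against change of the log2 free plus monosomal signal, thapsigargin minus control and without array normalization, for the 28 members coloured by role, with the median of all coding mRNAs as a cross. A cluster with lower P signal and higher FM signal holds Timm17b, Timm23, Timm50, Timm13, Timm22, Grpel1, Clpp and Hspe1, and Hspa9 and Hspd1 lie at the upper right with both signals higher.

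Small TIM chaperones travel in the intermembrane space as Timm9 with Timm10 and Timm8 forms with Timm13, and Timm22 forms the carrier insertase. As a group these mRNAs had the smallest median change, −0.54 for 6 accessions, 0.18 above that of all mRNAs, and the relative value ran from −0.83 to 0.97 over the settings, being below 0 with normexp and without background subtraction. Their mean A was 7.48 to 12.6, and over these ranges the median change of all mRNAs went from −0.67 to −1.71. The group was split. Timm13 and Timm22 were in the sensitive class and the other 4 had changes between −0.58 and −0.01.

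Timm9 had P signals of 284 in control and 518 under thapsigargin and FM signals of 270 and 496. Both fractions were higher in equal measure, and log2 P/FM of 0.08 and 0.06 differed by −0.01, 0.70 above the change of all mRNAs. Its partner Timm10 had P signals of 5124 and 4903 and FM signals of 2480 and 3548, and went from 1.05 to 0.47. Timm8b had P signals of 1827 and 1625 and FM signals of 4486 and 5614, and went from −1.30 to −1.79. Timm8a1, whose human counterpart is mutated in a deafness and dystonia syndrome, had P signals of 615 and 868 and FM signals of 4111 and 6266. Its log2 P/FM was −2.74 and −2.85, and only 0.837% of coding mRNAs were lower in control. All 4 lay above the median change of all mRNAs. With normexp background correction all fell below it, where no accession was filtered out and that median was 0.33. Their own changes were then 0.26 (Timm9), −0.49 (Timm10), −0.51 (Timm8b) and −0.31 (Timm8a1).

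Timm13 went the other way. Its P signal was 8604 in control and 4145 under thapsigargin and its FM signal 4194 and 9621, and log2 P/FM went from 1.04 to −1.21. The overlapping Timm13 probes gave −2.18 and −2.32. The change of Timm9 exceeded that of Timm13 by 2.24, with a range of 1.20 to 2.44 over the settings, and the change of Timm10 exceeded it by 1.67 (1.56 to 1.71). Timm22 averaged 0.36 and −1.82, with mean P signals of 185 and 104 and mean FM signals of 143 and 369. A bright probe with a change of −3.52 and a dim one with −0.85 made up this mean.

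Among the matrix chaperonin and proteases, partners and relatives differed from each other. Hspd1 (Hsp60) and Hspe1 (Hsp10) form one folding chamber and are encoded side by side on chromosome 1. Hspd1 had P signals of 3685 and 7583 and FM signals of 2919 and 7622 in control and thapsigargin, so both were higher under thapsigargin, and log2 P/FM went from 0.34 to −0.01. Hspe1 had P signals of 9776 and 5234 and FM signals of 8856 and 18804, and went from 0.14 to −1.85. The changes of −0.34 and −1.99 differed by 1.64, with a range of 1.52 to 1.72 over the settings. A was 1.21 higher for Hspd1 and 0.09 higher for Hspe1.

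Lonp1, the Lon protease, had P signals of 2949 and 4053 and FM signals of 1161 and 4103, and went from 1.34 to −0.02 with A higher by 1.14. Clpp, the proteolytic chamber of ClpXP, had P signals of 3833 and 2290 and FM signals of 1851 and 5152, and went from 1.05 to −1.17. The change of Lonp1 exceeded that of Clpp by 0.86, and by 0.86 to 0.92 over the settings. As a group the 4 accessions had a median change of −1.68, with a relative value of −0.96 that ran from −1.89 to 0.11 over the settings, being above 0 with the software's signals, its log ratio and loess, and 3 of 4 were sensitive. Their mean A was 11.4 to 13.2, where the median change of all mRNAs was −1.71 (11 to 13) and −1.99 (above 13). The sensitive share of all mRNAs in these ranges was 79.7% and 85.1%.

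Prohibitins form ring scaffolds in the inner membrane from Phb and Phb2. Both had a lower A under thapsigargin, and the difference for Phb was the lowest of the members above the filter. Phb had P signals of 3739 and 1951 and FM signals of 1585 and 1488, and Phb2 had P signals of 7210 and 3226 and FM signals of 4155 and 5851. Their log2 P/FM went from 1.24 to 0.39 and from 0.80 to −0.86, and A differed by −0.52 and −0.33, against a median of 0.37 over all mRNAs. The Phb probes at chr11:95541869-95541928 and chr11:95541201-95541260 gave changes of −0.29 and −1.41. The change of Phb exceeded that of Phb2 by 0.81, and by 0.55 to 0.88 over the settings, which is within the distance between the Phb probes.

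A, the stand-in for amount, was higher by a median of 0.19, below the 0.37 of all mRNAs. This order turned with normexp, at −0.01 against −1.48 of all, and without background subtraction, at 0.08 against 0.05. In both settings the filter on A removed no accession. With the software's processed signals the members' median was −0.28 against −0.02 of all. A was higher by 1 or more for 3 of 28, Hspa9 (1.39), Hspd1 (1.21) and Lonp1 (1.14), a share close to the 11.7% of all coding mRNAs, and lower by 1 or more for none (0.698% of all). By fraction, the P signal was lower for 20 of 28 and higher for 8, with a median of −0.74 against 0.02 over all mRNAs, and the FM signal was higher for 26 of 28, with a median of 0.96 against 0.72.

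Accessions of the Timm family that carry an older name on the array were not members by the rule. Magmas, now Pam16, a regulator of the import motor, went from 1.19 to −1.23. Fxc1, now Timm10b, went from 0.31 to −1.53, and 1700034H14Rik, now Timm21, from −0.36 to −1.36. 4930455C21Rik, now Timmdc1, went from 0.27 to −0.80. 1810026J23Rik, now Timm29, went from 0.85 to 1.45 and was in the resistant class, with signals of 27.3 to 81.2. The members below the filter were Timm8a2, not well above background in polysomes on either array, and Tomm20l, not well above background in any channel.

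Further import genes, among them the sorting and assembly machinery, the motor cochaperones and the presequence peptidases, were compared as a list. Of 18 on the array, 17 passed the filter. Their median change was −1.69, and 11 of 17 were sensitive. The sensitive share was 47.0% of all coding mRNAs, and 30.6% to 79.7% in the ranges of mean A these 17 spanned. Immp2l, an inner membrane peptidase, went from 2.48 to −0.13 with probes that were not all well above background in control, and Dnajc15, a J protein of the motor, from 0.43 to −2.09. At the other end Oxa1l, an insertase, went from −0.39 to −0.48, and its probes were not all well above background on either array. Mtx3, an outer membrane sorting component, went from −1.27 to 0.65 with signals of 16.7 to 40.3, close to background.

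The other mitochondrial chaperones and proteases, 13 accessions, had a median change of −1.02, and 9 of 13 were sensitive. The sensitive share was 47.0% of all coding mRNAs, and 30.6% to 79.7% in the ranges of mean A these 13 spanned. Hscb, an iron-sulfur cochaperone, went from −0.42 to −2.36 and Spg7, a paraplegin protease subunit, from 1.01 to −0.83. Yme1l1 and Oma1, also inner membrane proteases, had the highest changes of the list, going from 0.06 to 0.86 and from −0.19 to 0.02. A was higher for all 13, by 0.35 to 1.44, with a median of 0.70.

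Further mitochondrial lists and chaperones of other compartments were set beside the members. The median change was −2.71 for 44 complex I accessions, −2.18 for 80 mitochondrial ribosomal proteins, −1.39 for the 8 subunits of the cytosolic chaperonin CCT and −0.77 for 12 chaperones of the ER lumen. The import and chaperone members, at −1.31, lay between them. For A, the ER chaperones were all higher by 1 or more, with a median of 1.52, whereas the members' median was 0.19. These medians are set side by side without a test, as the study scaled the arrays and not at like signal. The median mean A was 11.3 for complex I, 9.73 for mitochondrial ribosomal proteins, 11.4 for CCT, 10.6 for the ER chaperones and 10.8 for the members. The other lists were not rerun under the alternative settings, so the order of the lists was not tested against signal or scaling.

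**Figure D5:**
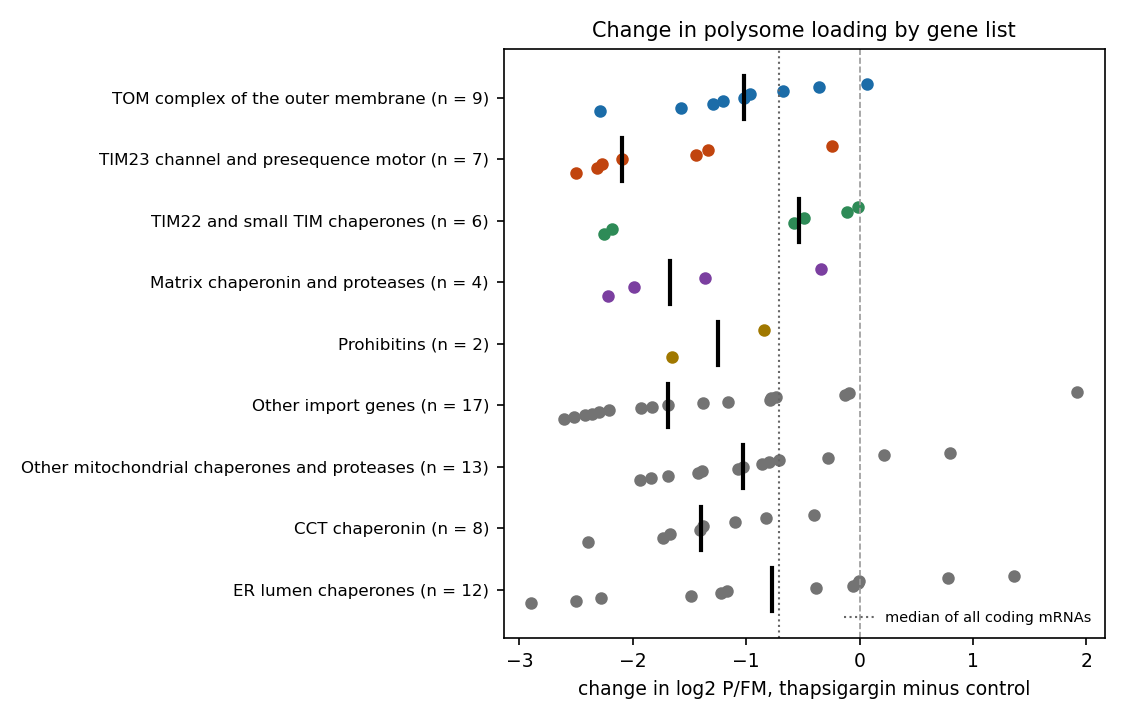
Change in log2 P/FM of each accession, thapsigargin minus control and without array normalization, for the 5 role groups of the members (coloured) and 4 other lists (grey), with list medians as black bars. The TIM23 group has its median at −2.09 and the TIM22 group at −0.54, and the dotted line marks the median of all coding mRNAs at −0.71, which spike-in scaling moves above 0.

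Promoter windows from RefSeq (GRCm38.p6), 250 bases before to 50 after a gene's start, were at hand for 27 of the 30 members and not for Hspa9, Tomm40l and Tomm7. Of 4 motifs searched on both strands, CCGGAAG, the core bound by ETS factors such as GABP, was in 12 of 27 member windows and in 9.93% of the 27025 genes with a window. CCAAT, bound by NF-Y, was in 10 of 27 and 41.1%. TGATGNAA, bound by ATF4 with CHOP, and CCAAT followed after 9 bases by CCACG, the ER stress element, were in none of the 27, and in 4.51% and 0.137% of all genes. These shares are over all genes with a window, detected in these cells or not. The share among detected genes was not computed, whereas nearly all members were detected. Short stretches before the start of a few member genes are shown because this motif was the one most shared, with it in capitals and written on the gene's strand.
Hspe1, chr1:55088061-55088087, plus strand: ctagaaccttCCGGAAGgccccgcgcg
Timm23, chr14:32201922-32201948, minus strand: gcgcttcccaCTTCCGGgccgcacaca
Tomm22, chr15:79670814-79670840, plus strand: cggctcgcttCCGGAAGacgctctgtc
Tomm70a, chr16:57121624-57121650, plus strand: ccttctgaccCCGGAAGtggttctccc
The Hspe1 stretch lies between the start sites of Hspe1 and Hspd1, whose windows overlap, and was counted for both. The 11 members above the filter with the motif had a median change of −1.29 and the 14 without it −1.40. A match is a description of letters, not a site.

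Markers of the cell type were checked in the same arrays. All 9 fibroblast markers found on the array passed the filter, from Col1a1 to Vim, whereas none of the 5 epithelial and none of the 4 endothelial accessions did, and 2 of 6 leukocyte accessions, Cd3e and Cd68, lay at a mean A of 5.99 and 5.65. The response to thapsigargin was present, with Ddit3, a stress-induced transcription factor, at a log2 P/FM of −1.74 and 0.84 and A higher by 3.71. Atf4, whose upstream reading frames favour translation under stress, went from −1.60 to 1.83. The share of spots well above background was 42.5% and 44.6% in P and 46.3% and 45.4% in FM, in control and thapsigargin.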

How the data were processed

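Per the file headers, the intensity values of spots and of their local background came from Feature Extraction, version 10.7.1 per the labels, run on 2 arrays, with probe positions on mm9. The deposited files also hold processed intensity values, flags and a log10 ratio after dye normalization. The authors' log2 table of Cy3 over Cy5 equalled spot means computed here in 99.99% (control) and 100% (thapsigargin) of 11483 values, within 0.001, so its scale and direction are settled, and its columns had medians of 0.21 and −0.36.

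Here each spot's mean signal less its median local background, held at or above 0.5, was used, and no normalization was applied. The study's methods name the background correction for the mouse arrays, but not the use of mean signal or median background. Those choices rest on the match to the authors' table. After leaving out 295 outlier spots (0.680%), none of a member, spots were averaged to probes and probes to accessions. RefSeq gave current symbols for 18423 of 18743 coding accessions. R 4.3.3 with limma 3.58.1 gave normexp (offset 50) and loess, Python 3.11.15 the rest, and scripts were tested on simulated data. Values in full were given, by rule, for the extremes of each role group, members above the median change, paralogs and partners, and members whose probes differed by over 1. The members and lists were chosen with earlier results of these data known.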

Additional observations from a re-analysis of the deposited data

Results flagged for a closer look

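Accessions with a member's name that do not start with NM stayed outside the comparisons, and 3 of 6 had an FM signal well above background on both arrays. Timm8b AF196314 had an FM signal of 2674 in control, and its log2 P/FM went from −1.71 to −2.32, beside −1.30 and −1.79 for the Timm8b member. Tomm20 AK160168 had an FM signal of 256 in control and went from −0.09 to −1.41, beside −0.18 and −1.75 for the Tomm20 member. Timm9 BC028435 had an FM signal of 249 in control and 62.7 under thapsigargin, with P not well above background, so no ratio is given.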

How the results depend on the processing

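No paired analysis was possible because each condition had 1 array. The members' median log2 P/FM in control (0.48) became 0.12 with normexp, −0.067 with the software's processed signals, 0.027 with its log ratio, −0.086 after loess, 0.17 after centring and 0.89 after spike-in scaling. Under thapsigargin (−1.14) it became −0.60, −0.58, −0.59, −0.86 and 1.81 under the last 5 of these, in the same order, and −0.86 with each probe by itself. The median change (−1.31) became −0.20, −0.24, −0.14, −0.72 and 1.24 under those 5. Relative to all mRNAs (−0.60) it was −1.38 with normexp, −0.95 without background subtraction, −0.22 with A above 7, and 0.10, 0.042 and 0.0074 with processed signals, log ratio and loess. With normexp and without background subtraction all 18743 accessions passed the filter on A, with median changes of 0.33 and −0.17. The 19 sensitive members became 8, 8, 6, 12 and 0 under the same 5 (33.3%, 32.6%, 27.0%, 28.3% and 0.638% of all mRNAs). The change in A (0.19, against 0.37 of all mRNAs) became −0.014 with normexp and −0.28 with processed signals, against −1.48 and −0.022 of all mRNAs. Without background subtraction it was 0.085 against 0.054. The cause of these shifts was not tested. Other alternatives moved none of these medians over all members by more than the probe SD, and no count by over 1.5 times. Role groups moved more, with the TIM23 median change (−2.09) at −1.44 both with only accessions well above background in every probe and without accessions whose probes disagreed, and the prohibitins (−1.25) at −1.65 in the latter. One of them, leaving out probes not well above background, was chosen after seeing the data. Of the 19 members below the median change of all mRNAs, 12 stayed below it under each of their 14 to 16 alternatives (Clpp, Grpel1, Hspe1, Timm13, Timm17b, Timm22, Timm23, Timm44, Timm50, Tomm22, Tomm34 and Tomm40). Of the 9 above it none stayed above, and all 9 fell below it with normexp. Several alternatives could not move a gene's relative value. Centring and spike-in scaling shift all mRNAs alike, and keeping core subunits or dropping accessions whose probes disagree changes neither the gene nor the reference. The filters on A or on background and the deposited table change only the reference median. The number of alternatives is therefore not a number of separate checks.

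The arrays were single and pooled, so preparation spread is not in these values. The scaling between arrays is unsettled, and absolute directions rest on it, whereas differences between members do not move with a shift. Filters on accessions do not move them either. The ranges given for pairs thus come only from the settings for background, signal, dim probes and loess. Centring and loess level each array and so also take out a difference in the labelled proportions of P and FM RNA, which the main scaling does not. A is the mean of both log2 signals, not a measured total. In 5 members, probes differed by over 1 in the change. For 20 members 1 probe, of 1 spot, carries the value. Dim probes limit Grpel1, Timm22 and Timm17b.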
